A study of Mus musculus with 3 samples.

Results

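The genes of TNF (tumour necrosis factor), of its receptors and of the enzyme complex that releases it from the cell surface were followed in mouse bone marrow (BM) cells over 5 days of LECT2. The 5 genes were picked out by their symbols, Tnf, Tnfrsf1a, Tnfrsf1b, Adam17 and Rhbdf2, and not by a threshold on their values, though earlier results of these data were known. Each has 1 row among the 17250 gene names of the deposited tables, and all 5 passed the minimum used here, 1 RPKM in either library of a comparison.

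Male C57BL/6 mice aged 6-8 weeks received recombinant LECT2, a protein made in Chinese hamster ovary cells, under the skin at 300 μg per kg once daily. The libraries came from mice after 0, 3 and 5 days of these injections, and the 0-day mice had received no LECT2. Cells were flushed from the femur, tibia, pelvis and humerus, and poly(A) RNA was sequenced without selection of a cell type, so every value is an average over mixed marrow. There was 1 library per time point, the number of mice behind each is not given in the sources used here, and no change over time could be checked on replicates or tested. The tables hold 15523952, 15146983 and 15514673 reads on genes at 0, 3 and 5 days. All intervals below are exact (Clopper-Pearson) 95% intervals that cover counting error alone, since reads amplified by PCR and not tagged with molecular identifiers do not each stand for a molecule.

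TNF is made as a membrane protein and cut from the cell surface by the metalloprotease ADAM17, also called TACE. The inactive protease iRhom2, encoded by Rhbdf2, carries ADAM17 through the secretory pathway and stays bound to it at the surface. Soluble and membrane TNF bind TNFR1 (Tnfrsf1a), which most cells carry and which has a death domain, and TNFR2 (Tnfrsf1b), which is mainly found on leukocytes and endothelial cells and lacks one. ADAM17 also sheds both receptors, and in BM the cytokine is known to act on haematopoietic stem cells.

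The genes are scattered over the mouse genome (positions from GENCODE M21, GRCm38). Tnf has 4 exons on the minus strand of chromosome 17 (35199381 to 35202007), between Lta (35203165 to 35205351) and Ltb (35194439 to 35196320). Tnfrsf1a has 10 exons on the plus strand of chromosome 6 (125349362 to 125362484). Tnfrsf1b has 10 exons on the minus strand of chromosome 4 (145213463 to 145246870). Adam17 has 20 exons on the minus strand of chromosome 12 (21323509 to 21373632), and Rhbdf2 has 19 on the minus strand of chromosome 11 (116598165 to 116627019). The 3′ untranslated region (UTR) of Tnf carries the AU-rich element through which RNA-binding proteins shorten the life of the mRNA, and it is shown because none of the other 4 genes has its core motif. This 30-base stretch of the last exon, chr17:35199679-35199708 on the minus strand of GRCm38, begins 437 bases after the stop codon, and capitals mark the bases covered by the 4 overlapping matches of TTATTTATT.
Tnf AU-rich site: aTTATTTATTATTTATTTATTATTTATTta
The sense strand of the whole 3′ UTR of Tnf, 764 bases, holds 5 such nonamers and 8 matches of the shorter ATTTA. The nonamer was found at least once in 7.65% of 20755 mouse genes and at least 3 times in 0.655%. The 3′ UTRs of Tnfrsf1a, Tnfrsf1b, Adam17 and Rhbdf2 hold 0 nonamers, and 0, 2, 1 and 1 matches of ATTTA, a pentamer found in 65.3% of genes.

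The promoters of the ligand and of TNFR2 are shown as the pair of genes whose levels moved furthest apart (250 bases before to 50 after the start site, RefSeq, GRCm38.p6, minus strand). The Tnf promoter is chr17:35201958-35202257 and the Tnfrsf1b promoter is chr4:145246821-145247120, and capitals mark the TATA box motif TATAAA.
Tnf promoter: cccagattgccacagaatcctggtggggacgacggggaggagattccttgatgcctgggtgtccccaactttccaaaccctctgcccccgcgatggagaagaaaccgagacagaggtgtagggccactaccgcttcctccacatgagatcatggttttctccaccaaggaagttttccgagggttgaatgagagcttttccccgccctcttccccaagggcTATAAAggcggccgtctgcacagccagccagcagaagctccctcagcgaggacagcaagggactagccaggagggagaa
Tnfrsf1b promoter: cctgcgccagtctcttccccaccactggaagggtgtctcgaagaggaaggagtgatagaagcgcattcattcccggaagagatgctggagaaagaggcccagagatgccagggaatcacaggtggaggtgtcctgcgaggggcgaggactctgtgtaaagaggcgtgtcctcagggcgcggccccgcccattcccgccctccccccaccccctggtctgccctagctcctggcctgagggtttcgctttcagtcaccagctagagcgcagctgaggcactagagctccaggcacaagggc
Both strands of the 4 promoters in the RefSeq table, those of Tnf, Tnfrsf1a, Tnfrsf1b and Adam17, were searched for 3 motifs. TATAAA was found in that of Tnf, with its first base at −29, and not in the other 3, against 13.6% of 32851 promoters. The NF-κB consensus (5.805% of promoters) and the AP-1-type motif TGANTCA (7.81%) were found in none of the 4, which says only that these letters are not in these windows.

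At 0 days the ligand was the most abundant of the 5 transcripts per length of gene, and at 5 days it was the least abundant. The reads of Tnf numbered 2313, 1483 and 166 at 0, 3 and 5 days. These are levels of 92.0, 60.5 and 6.61 RPKM, a unit that divides the reads by gene length and by the reads of the library. The fall was uneven in time, since the 3-day level was 65.7% of the 0-day level and the 5-day level 10.9% of the 3-day level. The log2 ratio against 0 days was −0.60 (−0.70 to −0.51) at 3 days and −3.78 (−4.04 to −3.57) at 5 days. Every log2 ratio was taken of RPKM + 0.1, which slightly understates the change of low genes. Among 11144 genes with an average of 1 RPKM or more, 0.251% had a lower ratio than Tnf at 5 days and 8.48% at 3 days. Fewer cells of a type that express a gene and less RNA of it per cell cannot be told apart in such bulk samples.

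The receptors did not follow the ligand. Tnfrsf1a, the widely expressed receptor, was counted with 1375, 2107 and 1936 reads at 0, 3 and 5 days, or 40.5, 63.6 and 57.1 RPKM. It was highest at 3 days, and the intervals of the 3- and 5-day levels (60.9 to 66.4 and 54.6 to 59.7 RPKM) do not overlap. Its log2 ratio against 0 days was 0.65 (0.55 to 0.75) at 3 days and 0.49 (0.39 to 0.60) at 5 days. Tnfrsf1b, the receptor of leukocytes, was counted with 1538, 2231 and 3594 reads, or 20.2, 29.98 and 47.2 RPKM. It was higher at each later time point, with log2 ratios of 0.57 (0.48 to 0.67) at 3 days and 1.22 (1.14 to 1.31) at 5 days. Its 5-day level was 2.34-fold the 0-day level, and that of Tnfrsf1a 1.41-fold.

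The 2 components of the sheddase also parted. Adam17, the protease itself, was counted with 850, 1223 and 1731 reads, or 12.4, 18.3 and 25.3 RPKM. Its log2 ratio was 0.56 (0.43 to 0.69) at 3 days and 1.02 (0.91 to 1.15) at 5 days, so its level also was higher at each later time point. Rhbdf2, its carrier, was counted with 1194, 1576 and 1197 reads, or 19.6, 26.5 and 19.6 RPKM. It was highest at 3 days, at a log2 ratio of 0.43 (0.33 to 0.55), and was back at its first level at 5 days, where its log2 ratio was 0.00 (−0.11 to 0.12). The reads of Adam17 carry an added uncertainty, because 311 of its 7154 annotated exon bases also belong to exons of Iah1 on the opposite strand, and the strand setting of the counting is not given in the sources used here. Iah1, named for this reason alone, had 281, 200 and 234 reads, fewer than Adam17 in every library and fewest at 3 days.

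**Figure D1:**
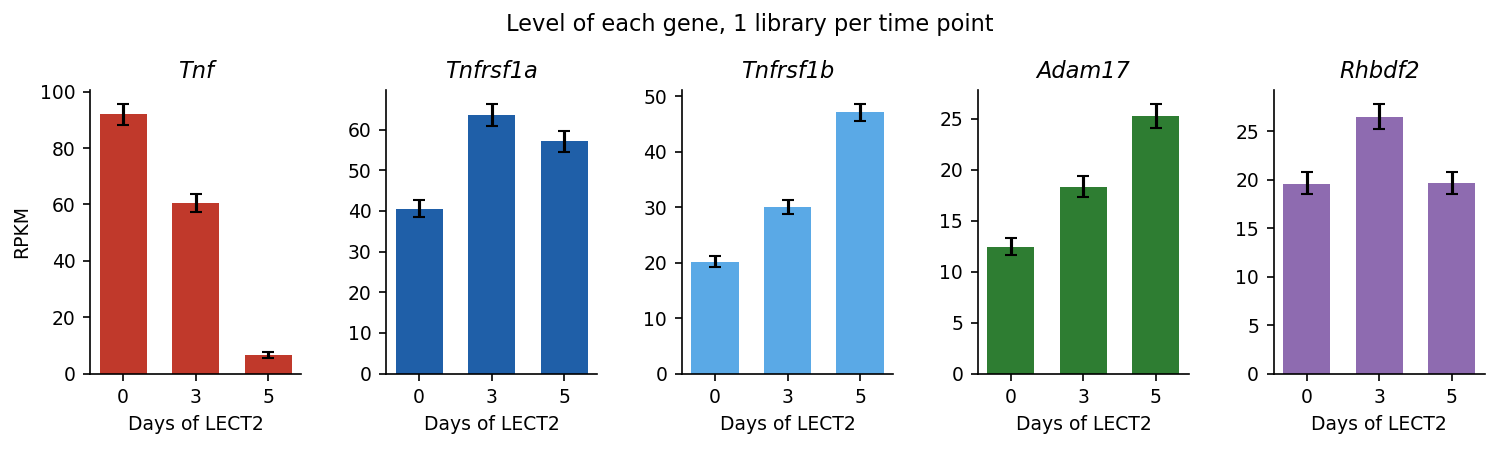
RPKM (y axis, each panel with its own scale from 0) of the 5 genes in the libraries of 0, 3 and 5 days of LECT2 (x axis), with error bars for the exact 95% counting interval of 1 library. Tnf goes from 92.0 to 6.61 RPKM, Tnfrsf1b from 20.2 to 47.2 and Adam17 from 12.4 to 25.3, while Tnfrsf1a and Rhbdf2 are highest at 3 days.

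At a threshold of 2-fold, 0 of the 5 genes was changed at 3 days against 0 days, where 4.08% of 11325 tested genes were higher by that much and 2.41% lower. At 5 days against 0 days, Tnfrsf1b and Adam17 were at least 2-fold higher and Tnf was lower. Of 11497 tested genes, 15.5% were higher and 5.91% lower in that comparison. At 5 days against 3 days, 1 of the 5, Tnf, was at least 2-fold lower and 0 were higher, where 3.45% of 11375 genes were lower and 1.95% higher. The 0-day library serves both first comparisons, which are therefore not independent of each other.

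The increases of the receptors and of Adam17 have to be read against 2 features of these libraries. First, the 100 genes with the most reads held 27.2%, 23.3% and 17.5% of the reads at 0, 3 and 5 days, and over all 11144 genes the median log2 ratio against 0 days was 0.10 (3 days) and 0.31 (5 days). TMM scaling, which resets each library to the bulk of its genes, brought these medians to 0.02 and 0.01. Second, longer genes had higher ratios, and the members differ in length. Among genes of the length class of Tnf the median at 5 days was 0.08, among those of the class of Tnfrsf1a it was 0.20, in the class of Adam17 and Rhbdf2 it was 0.58 and in that of Tnfrsf1b it was 0.66. In the deposited RPKM 72.4% of the genes changed at least 2-fold at 5 days were higher, and under TMM scaling 41.3%.

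The fall of Tnf hardly depended on these choices. Its log2 ratio at 5 days was −4.09 under TMM scaling and −3.83 with the trend on gene length removed, and at 3 days it was −0.69 and −0.46. Neither Tnfrsf1b nor Adam17 was at least 2-fold higher at 5 days after either step. For Tnfrsf1b the log2 ratio at 5 days was 0.91 under TMM scaling and 0.57 with the length trend removed, and for Adam17 it was 0.71 and 0.41. Both therefore kept a higher level than at 0 days. Tnfrsf1a at 5 days went to 0.18 and 0.26. Rhbdf2, level with 0 days in RPKM, was lower after both steps, with log2 ratios of −0.30 and −0.56.

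**Figure D2:**
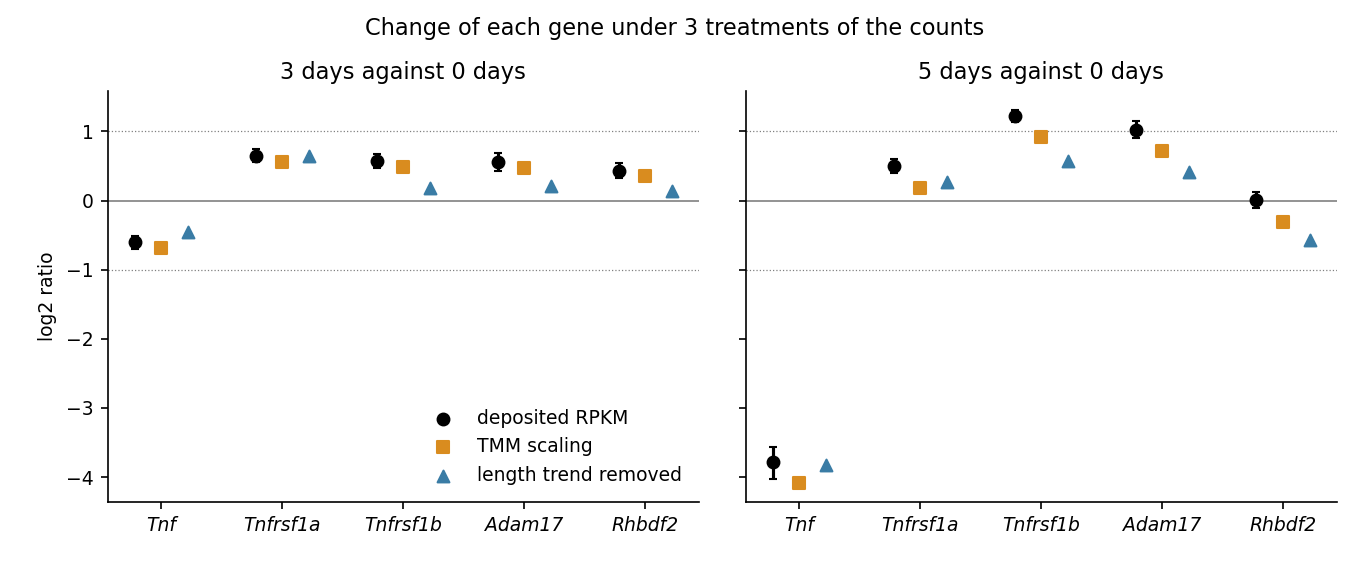
Log2 ratios (y axis) of the 5 genes (x axis) at 3 days (left) and 5 days (right) against 0 days, from the deposited RPKM (black circles, with exact 95% counting intervals), after TMM scaling (squares) and with the length trend removed (triangles); dotted lines mark 2-fold. Tnf at 5 days lies between −4.09 and −3.78 and far from the other genes, while of the 3 values plotted for Tnfrsf1b and Adam17 only those of the deposited RPKM cross 2-fold.

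Ratios between the genes within a library do not depend on how libraries are scaled, though the length trend can still move those between genes of unlike length. Tnf was present at 2.27 times the level of Tnfrsf1a at 0 days (2.12 to 2.43), at 0.950 times at 3 days (0.889 to 1.02) and at 0.116 times at 5 days (0.0982 to 0.136). The interval at 3 days includes 1, so at the deposited lengths the order of the ligand and its receptor could not be told at that time point. At 5 days Tnfrsf1a exceeded Tnf 8.64-fold (7.37 to 10.2). Against its sheddase, Tnf went from 7.41 times the level of Adam17 (6.85 to 8.03) to 3.30 times (3.06 to 3.57) and 0.261 times (0.221 to 0.307). Relative to Rhbdf2 it went from 4.70 to 2.28 and 0.336 times. Relative to Tnfrsf1b, whose length is uncertain, it went from 4.56 to 2.02 and 0.140 times.

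The balance between the receptors shifted between 3 and 5 days. Tnfrsf1a was at 2.01 times the level of Tnfrsf1b at 0 days (1.87 to 2.16), 2.12 times at 3 days (1.999 to 2.25) and 1.21 times at 5 days (1.14 to 1.28). The first 2 intervals overlap, and the third lies below both. The tables give Tnfrsf1b a length of 4913 bases, and its longest GENCODE transcript has 3818. With GENCODE lengths the same ratios were 1.58, 1.67 and 0.954, so which receptor had the higher level at 5 days depends on the length used. The change over time of this ratio does not depend on that length, but it does move with the length trend between libraries. With that trend removed, the log2 ratios of Tnfrsf1a and Tnfrsf1b against 0 days were 0.64 and 0.19 at 3 days and 0.26 and 0.57 at 5 days, so the receptors then also differed at 3 days and differed less at 5 days. Between 3 and 5 days they were −0.40 and 0.36. Adam17 and Rhbdf2 changed places over the same interval. Their ratio was 0.634 at 0 days (0.580 to 0.693), 0.691 at 3 days (0.641 to 0.745) and 1.29 at 5 days (1.20 to 1.39).

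In order of level per deposited length, the genes at 0 days were Tnf, Tnfrsf1a, Tnfrsf1b, Rhbdf2 and Adam17. At these lengths Tnfrsf1b, whose length is uncertain, and Rhbdf2 could not be told apart (ratio 1.03, 0.954 to 1.11). At 3 days the order was Tnfrsf1a, Tnf, Tnfrsf1b, Rhbdf2 and Adam17, with the first 2 not separated at these lengths. At 5 days it was Tnfrsf1a, Tnfrsf1b, Adam17, Rhbdf2 and Tnf, and all neighbours differed beyond their counting intervals at the deposited lengths. Against all genes with reads, Tnf moved from percentile 94.7 at 0 days to 51.6 at 5 days. Over the same time Tnfrsf1b moved from percentile 77.6 to 88.8 and Adam17 from 68.9 to 78.5.

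**Figure D3:**
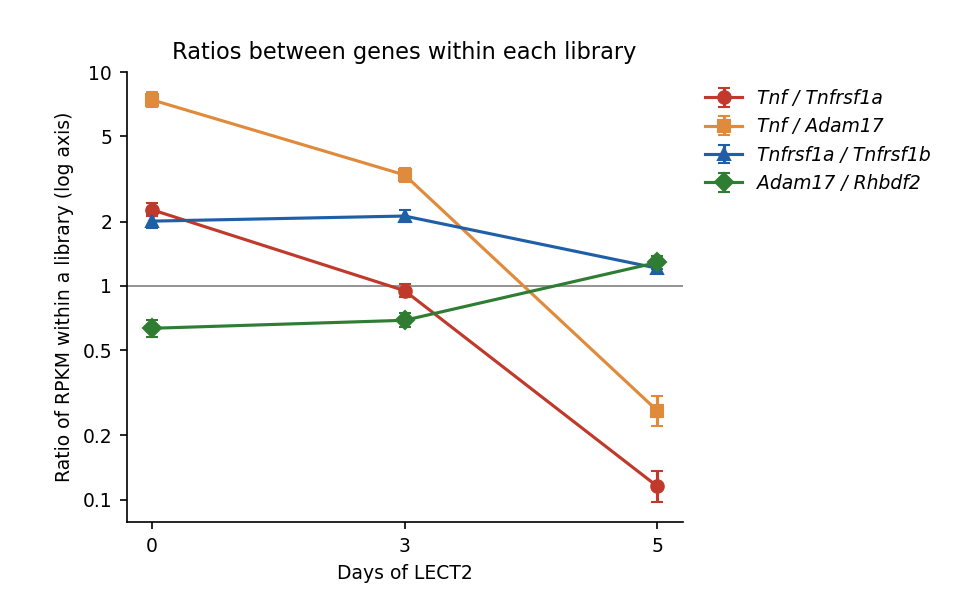
Ratio of the RPKM of 2 genes in the same library (y axis, log scale) at 0, 3 and 5 days of LECT2 (x axis), with exact 95% counting intervals and a line at 1. Tnf per Tnfrsf1a goes from 2.27 to 0.116 and Tnf per Adam17 from 7.41 to 0.261, Tnfrsf1a per Tnfrsf1b goes from 2.01 to 1.21, and Adam17 per Rhbdf2 crosses 1 between 3 and 5 days.

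The cell types known to make TNF did not share one direction. The 12 macrophage markers summed to 432, 587 and 775 RPKM at 0, 3 and 5 days, with 6 of the 12 at least 2-fold higher and 0 lower at 5 days, beside 15.5% of all genes higher. Under TMM scaling 3 were higher and with the length trend removed 4, beside 7.13% and 5.05% of all genes. The median log2 ratio of 0.93 became 0.62 and 0.37. Csf1r, the receptor for macrophage colony-stimulating factor, went from 26.7 to 49.6 and 85.3 RPKM, whereas C1qa, a complement component of tissue macrophages, stood at 62.4, 57.6 and 54.4. Set against that sum, to which none of the 5 genes belongs, the level of Tnf went from 21.3% to 10.3% and 0.853% of its size, Tnfrsf1a from 9.37% to 10.8% and 7.37%, and Rhbdf2 from 4.53% to 4.52% and 2.54%. Adam17 stayed between 2.87% and 3.27% and Tnfrsf1b between 4.66% and 6.09%. The 8 monocyte markers summed to 1420, 1711 and 2309 RPKM, with 5 at least 2-fold higher and 1, the endotoxin co-receptor Cd14, lower at 5 days (15.5% and 5.91% of all genes). The 5 promyelocyte markers, genes of the primary granules, summed to 2241, 2075 and 3619 RPKM.

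Markers of late neutrophils were mixed at 3 days and lower at 5 days. At 3 days 8 of 11 had lower RPKM than at 0 days, as had Tnf, and 3 had higher RPKM, among them Mmp9. Their median log2 ratio was −0.26, and −0.35 under TMM scaling. With the length trend removed it was 0.13, and 7 of 11 were higher. All 11, those with an average of 1 RPKM or more, had fallen by 2-fold or more at 5 days. With the length trend removed 10 had, beside 7.61% of all genes. The sum of the late neutrophil markers, to which S100a8, S100a9 and Ngp add most, went from 150033 to 115996 and 41373 RPKM. The level of Tnf, which is not part of this sum, equalled 0.0613%, 0.0521% and 0.0160% of its size. Among the single markers, Il1r2 (log2 ratio −4.00 at 5 days) and Retnlg (−3.96) had lower ratios than Tnf (−3.78). Under TMM scaling both were still lower, at −4.31 and −4.27 beside −4.09 for Tnf. With the length trend removed Il1r2 (−3.96) was lower than Tnf (−3.83), and Retnlg (−3.42) was not. The osteolineage markers, which include the bone matrix genes Col1a1 and Spp1, summed to 71.3, 68.1 and 26.3 RPKM, and 5 of 6 were at least 2-fold lower at 5 days, beside 5.91% of all genes, which also stands against the count of neutrophil markers. For T and NK cells the sums were 268, 155 and 217 RPKM, for B cells 2058, 1643 and 1468, for erythroid cells 486, 640 and 479 and for megakaryocytes 39.7, 20.4 and 36.8. None of the listed marker genes with a row had 0 reads in a library. The part of these cell types in the levels of the 5 genes was not tested.

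Downstream of TNFR1, the adaptors and ubiquitin enzymes of the receptor complex moved little. Of 22 listed genes, 21 had an average of 1 RPKM or more, and at 5 days against 0 days 0 were at least 2-fold higher and 1 was lower (15.5% and 5.91% of all genes). The list's median was 0.26 on the log2 scale, beside 0.31 over all genes, −0.05 under TMM scaling and −0.27 with the length trend removed. The 1 lower gene was Tnfaip3, which encodes the deubiquitinase A20, an inhibitor that TNF itself induces. It went from 170 to 122 and 48.5 RPKM, a log2 ratio of −1.81 at 5 days. Map3k7, which encodes the kinase TAK1, had the largest increase, from 10.2 to 14.9 and 20.2 RPKM, short of 2-fold. Sharpin, a subunit of the linear ubiquitin ligase, stood at 48.9, 48.1 and 58.6 RPKM, and Tab2, which links TAK1 to ubiquitin chains, at 53.5, 70.4 and 77.7.

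The 7 genes of the death branch all had higher RPKM at 5 days. By 2-fold or more 1 was higher and 0 lower, beside 15.5% and 5.91% of all genes. Their median log2 ratio was 0.59, beside 0.31 over all genes. It was 0.29 under TMM scaling and 0.32 with the length trend removed, and after either step 6 of 7 were higher. Casp8, the initiator caspase of death receptors, went from 20.9 to 26.6 and 30.6 RPKM, and Bid, its substrate that leads to mitochondria, from 23.0 to 25.9 and 31.8.

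Many genes that TNF is known to induce through NF-κB were lower at 5 days. Of 25 listed genes, 24 had an average of 1 RPKM or more, and Tnfaip3, Birc3 and Traf1 are also in the list of the receptor complex. By 2-fold or more, 5 of these were lower at 3 days and 11 at 5 days, with 0 higher at either time. Over all genes the share lower by that much was 2.41% at 3 days and 5.91% at 5 days, when 15.5% were higher. At 5 days against 3 days 10 were at least 2-fold lower and 0 higher, beside 3.45% and 1.95% of all genes. Their median log2 ratios were −0.43 (3 days) and −0.66 (5 days), beside 0.10 and 0.31 over all genes, and −0.39 and −0.95 with the length trend removed. After that removal 1 gene passed 2-fold at 3 days and 11 at 5 days, all lower, beside 1.81% and 7.61% of all genes. Nfkbia, the inhibitor IκBα, went from 991 to 401 and 172 RPKM. Junb, an AP-1 subunit, went from 716 to 535 and 210 RPKM. The neutrophil chemokine gene Cxcl1 had the largest decrease, from 176 reads to 102 and 5, or 11.8, 6.99 and 0.334 RPKM.

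Others of these genes went their own way. Mmp9, a gelatinase gene, was higher at 3 days (353 and 556 RPKM) and lower at 5 days (101 RPKM), and it is also one of the late neutrophil markers above. Vcam1, an adhesion molecule of macrophages and stroma, had the largest increase, at 29.4, 39.9 and 48.3 RPKM. Many of these genes are induced by other signals too, and the part of TNF in their levels was not tested.

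Around the sheddase, 9 of 11 listed partners and regulators had an average of 1 RPKM or more, and 3 of them were at least 2-fold higher at 5 days with 0 lower, beside 15.5% and 5.91% of all genes. The 3 were Adam10, the closest relative of ADAM17, at 32.9, 52.2 and 67.5 RPKM, Pacs2, a sorting protein, at 8.66, 13.6 and 21.5, and Mapk14, the p38α kinase, at 45.2, 76.6 and 91.2. Like Adam17, none of them was 2-fold higher under TMM scaling or with the length trend removed. Mapk3, which encodes the kinase ERK1, had the lowest ratio, at 192, 171 and 130 RPKM. Rhbdf1 and Timp3, which encode the other iRhom and the tissue inhibitor of ADAM17, stayed below 1 RPKM on average, with at most 31 reads in any library.

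Other proteins that ADAM17 cuts did not move as one group. Of 14 with an average of 1 RPKM or more, 5 were at least 2-fold higher and 2 lower at 5 days, against shares of 15.5% and 5.91% over all genes. The median was 0.70 (0.39 under TMM scaling and 0.29 with the length trend removed). After either step 3 were at least 2-fold higher, without Spn and Cd163, beside 7.13% (TMM) and 5.05% (length trend removed) of all genes. The lower ones were Il1r2, the decoy receptor for interleukin-1, at 226, 109 and 14.0 RPKM, and Areg, which encodes the growth factor amphiregulin, at 87, 31 and 5 reads. Il6ra, the interleukin-6 receptor, had the largest increase, at 11.8, 25.2 and 39.6 RPKM. Spn, the leukocyte sialoprotein CD43, stood at 48.3, 67.8 and 103 RPKM. Csf1r, Mertk and Cd163, the remaining ones at least 2-fold higher, are also macrophage markers here, and Il1r2 is also a late neutrophil marker.

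Of 14 genes that act on the stability or translation of Tnf mRNA, 3 were at least 2-fold higher and 2 lower at 5 days, with a median of 0.49. Over all genes these shares were 15.5% and 5.91%, so the 3 higher genes are near the background. Zfp36 (tristetraprolin), which binds AU-rich elements such as the site printed above and speeds their decay, went from 1228 to 1055 and 395 RPKM. Zc3h12a (Regnase-1), an endonuclease that acts on cytokine mRNAs, was the other lower gene, at 39.7, 30.3 and 17.9 RPKM. Mapkapk3, a kinase downstream of p38, had the largest increase, from 18.6 to 39.1 and 57.4 RPKM, while Mapkapk2 stood at 101, 106 and 133. Zfp36l2, a relative of Zfp36, went from 126 to 153 and 231 RPKM. The remaining genes past 2-fold, Khsrp and Mapk14, were below it under TMM scaling, and the median then was 0.18. With the length trend removed the median was −0.13, and 6 of the 14 were higher.

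**Figure D4:**
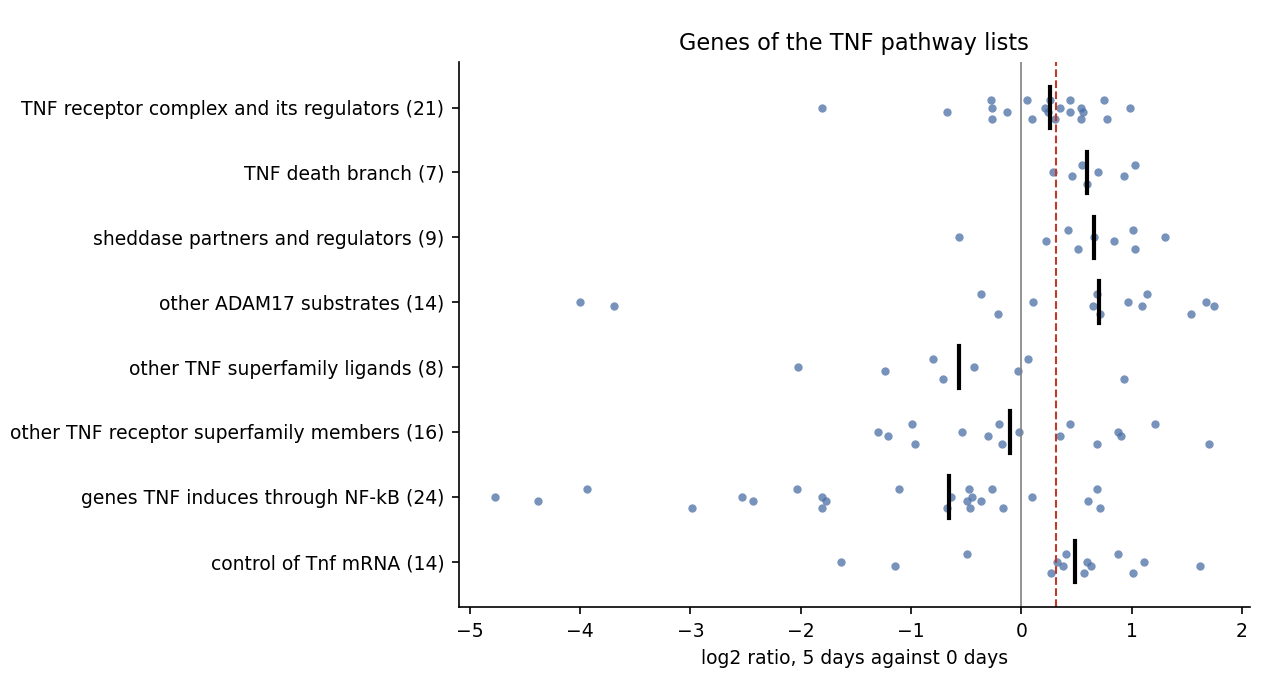
Log2 ratio of RPKM at 5 days against 0 days (x axis) for the genes of 8 lists around TNF (y axis, with the number of genes that had an average of 1 RPKM or more). Each point is a gene, black bars are list medians and the dashed line is the median of all genes (0.31); the NF-κB list has its median at −0.66 and the receptor complex at 0.26.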

How the data were processed

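RNA-seq data of mouse BM cells after 0, 3 and 5 days of LECT2 were used, with 1 TruSeq library per time point and 15146983 to 15523952 reads on genes. The authors deposited 3 tables of pairwise comparisons with whole read counts per gene, the gene length and the RPKM made from these counts. By recomputation, the deposited RPKM are the counts over gene length and over the reads on all listed genes, apart from 18 rows at 0 days and 14 at 3 days, none with more than 36 reads. Genes without reads, listed at a small placeholder, were set to 0. Their columns of log2 ratios, P values and false discovery rates set the reads of 2 libraries against each other and were left aside. The submitters' processing notes name mm8 as the genome build, and the aligner is not given in the sources used here. Positions and sequences come from GENCODE M21 (GRCm38) and RefSeq (GRCm38.p6), and no coordinate was taken from the tables.

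Samples were grouped by title. Where a symbol had more than 1 row, the most abundant one by average RPKM was kept, and rows were summed as an alternative. Changes were computed as log2 ratios of RPKM with a pseudocount of 0.1. With 1 library per group no test was run, and a gene was called at 2-fold or more among genes with at least 1 RPKM in either library. List medians cover genes with an average of 1 RPKM or more. Named list genes were the 3 most abundant and, from a mean of 5 RPKM, the largest increase and decrease at 5 days, besides those that a small count covers. Some genes that this rule names are not reported here. The nearest patterns were the 5 genes with the smallest Euclidean distance over both log2 ratios against 0 days. The genes and lists were chosen with earlier results of these data known. Alternatives were TMM factors (edgeR 4.0.16), median-of-ratios size factors (DESeq2 1.42.0), scaling to the reads outside the 100 genes with the most reads, removal of the length trend (lowess, span 0.3, statsmodels 0.14.6), pseudocounts of 1 and 0.01, minima of 5 RPKM and none, and thresholds of 1.5- and 4-fold. Motifs were searched as exact letters. The steps were tested on simulated counts. Python 3.11.15, pandas 2.3.3, scipy 1.17.1 and R 4.3.3 were used.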

Additional observations from a re-analysis of the deposited data

How the results depend on the processing

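Each value rests on 1 library per time point, so the intervals carry counting error and no variation between mice or preparations, and leaving out a library leaves no comparison. The 3 log2 ratios of Tnf stayed negative under all 7 alternatives, from −0.69 to −0.46 at 3 days against 0 days, from −4.09 to −3.61 at 5 days against 0 days and from −3.40 to −3.01 at 5 days against 3 days. Outside the counting interval were −4.09 (TMM) and −4.08 (median-of-ratios) at 5 days, and −0.46 at 3 days with the length trend removed. The number of the 5 genes at least 2-fold changed at 5 days against 0 days fell from 3 to 1, Tnf, under TMM scaling, median-of-ratios scaling, removal of the length trend and a threshold of 4-fold. Over all genes 10.2%, 9.98%, 7.61% and 1.62% were then lower, and 7.13%, 7.36%, 5.05% and 1.33% higher, in the same order. The number was 2, without Adam17, with a pseudocount of 1 RPKM (Adam17 at 0.97) and without the 100 genes with the most reads (0.84). Of all genes, 9.92% and 10.3% were then higher, and 4.18% and 8.57% lower. Under a threshold of 1.5-fold it was 2 at 3 days against 0 days and 2 at 5 days against 3 days. Of the 12 log2 ratios of the other 4 genes, 8 moved beyond their counting interval under TMM scaling, 8 under median-of-ratios scaling, 7 without the 100 genes with the most reads and 11 with the length trend removed, whereas 0 moved beyond it with either pseudocount or with summed rows. The only one of them that changed sign was Rhbdf2 at 5 days against 0 days, whose interval includes 0. Of 51 list medians (17 lists in 3 comparisons), 5 changed sign under TMM scaling and 12 with the length trend removed. The cause of these moves was not tested.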

Other observations

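The other ligands of the TNF superfamily were mostly low in these marrow libraries. Of 16 with a row, 8 had an average of 1 RPKM or more. At 5 days against 0 days 2 of these were at least 2-fold lower and 0 higher (5.91% and 15.5% of all genes). Under TMM scaling 4 were lower, beside 10.2% of all genes. The median log2 ratio was −0.57, and it was −0.86 under TMM scaling and −0.66 with the length trend removed. Tnfsf9, the ligand of 4-1BB, stood at 20.7, 10.4 and 5.03 RPKM at 0, 3 and 5 days. Tnfsf13b, the B cell survival factor BAFF, stood at 21.7, 21.9 and 9.20 RPKM, so its decrease fell between 3 and 5 days. Ltb, which encodes lymphotoxin β and lies beside Tnf, went from 51.7 to 45.6 and 29.6 RPKM. Lta, the neighbour on the other side, had only 33, 20 and 24 reads, against 2313, 1483 and 166 for Tnf.

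Of 16 other receptors of the family with an average of 1 RPKM or more, 2 were at least 2-fold higher and 2 lower at 5 days, beside 15.5% and 5.91% of all genes. Under TMM scaling 1 was higher and 4 lower, beside 7.13% and 10.2% of all genes. The median was −0.10, and −0.40 under TMM scaling. Tnfrsf14, the herpesvirus entry mediator, went from 9.74 to 22.5 and 31.8 RPKM, and Tnfrsf10b, a death receptor for TRAIL, from 9.61 to 4.63 and 3.85. Tnfrsf13c, the BAFF receptor of B cells, stood at 66.8, 61.2 and 54.3 RPKM, and Tnfrsf21 at 19.8, 29.0 and 31.9. The others past 2-fold were Tnfrsf13b, higher with 101, 178 and 236 reads, and Tnfrsf18, lower with 141, 88 and 60 reads.

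Other genes with 3 or more AU-rich nonamers in the 3′ UTR did not fall as a group, a grouping made after the values of Tnf were seen. Without Tnf there were 62 such genes with an average of 1 RPKM or more, and their median log2 ratio at 5 days was 0.36, beside 0.33 over the 9891 genes whose 3′ UTR was matched. Of the 62, 3 (4.84%) were at least 2-fold lower and 9 higher, beside 465 (4.70%) and 1502 of the 9891. The 3 lower genes were the chemokine gene Cxcl2, from 379 to 192 and 18.1 RPKM, the stress gene Ppp1r15a, from 206 to 127 and 55.2, and the histone gene Hist1h1d, from 1.99 to 1.53 and 0.671.

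The genes with time courses nearest to each of the 5 were sought among 8191 candidates by the Euclidean distance over the log2 ratios at 3 and 5 days. Nearest to Tnf was G0s2 (distance 0.232), at 483, 364 and 32.2 RPKM, and the next were Retnlg, Klf2, Il1r2 and Cxcl10, at distances of 0.252 to 0.506. The nearest to Tnfrsf1a were 4933426M11Rik, Vsp9d1, Atg9a, Iqgap1 and Gys1, and to Tnfrsf1b they were Ncapg, Dennd1a, Smc2, Ep400 and Helb. Nearest to Adam17 were Ppp6r3, BC017158, Fnbp1, Phf12 and Hfe, and to Rhbdf2 Rgs18, Fcgr3, Neat1, Usp46 and Zxdc. Within a distance of 0.25 lay 1 candidate for Tnf, but 390 for Tnfrsf1a, 495 for Tnfrsf1b, 726 for Adam17 and 232 for Rhbdf2. The genes named for these last 4 are therefore a few of many with much the same time course. Each distance rests on 3 libraries.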
